A study of Ovis aries with 2 samples.

Results

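The genes described here are 10 components of the vascular basement membrane: the collagen IV chains COL4A1 and COL4A2, the collagens COL15A1 and COL18A1, the laminin chains LAMA2, LAMA4, LAMA5, LAMB1 and LAMC1, and the perlecan gene HSPG2. They were picked by symbol from the gene list of the count matrices, and all 10 were found among its 21890 genes. The study made 2 droplet single-cell RNA libraries from sheep. The graft library, titled H2R5-ATEV, came from a vascular graft that held no cells when it was implanted. The native library came from a carotid artery, although its title says aorta. Both vessels belonged to sheep of 1 to 2 years and were explanted at 12 weeks, and how many animals were used is not stated. Cells were freed from both by filling the clamped vessel with digestion enzymes from the lumen, after transport in endothelial growth medium. With 1 library per group, no difference given here has a replicate check, and every interval covers counting error only.

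A basement membrane is a thin sheet of matrix on which endothelial cells rest and which wraps each smooth muscle cell of an artery. Laminins, each a trimer of an alpha, a beta and a gamma chain, form a network at the cell surface and bind integrins and dystroglycan, largely through the alpha chain. Collagen IV forms a cross-linked network that gives the sheet its strength, and perlecan and nidogens tie the networks together. The roles given for single genes are known from human and mouse.

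After filtering, 1074 graft cells with 35167561 unique molecular identifiers (UMIs, each standing for 1 captured transcript) and 10080 native cells with 40609567 UMIs were kept. The median depth was 20737.5 UMIs per graft cell and 1510 UMIs per native cell. Cell classes were named from marker genes, and the clusters behind them were made without the 10 genes and without other basement membrane genes. Endothelial-like cells numbered 206 in the graft and 2554 in the native artery, and smooth muscle-like cells 201 in the graft and 143 in the native artery. The ending "-like" is dropped from here on. Macrophages (305 graft and 452 native cells) and T or NK cells (69 graft and 576 native cells) were also compared. Only 28 graft fibroblasts were found beside 1832 native ones, so that fibroblasts are given as levels. In the graft 19.7% of cells stayed unnamed, and in the native artery 44.4%. Levels are UMIs per 1000000 UMIs of the class and library (CPM), with exact Poisson intervals at 95% in brackets, and ratios carry exact conditional binomial intervals. Of the kept barcodes, 4 occurred in both libraries, and leaving them out moved no count of genes given here.

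Graft endothelial cells carried far more collagen IV transcript than native ones, more LAMC1 and LAMA5, and less LAMA2. LAMA4, LAMB1, COL18A1 and HSPG2 lay within 2-fold in these cells. Graft smooth muscle cells also carried more collagen IV and very little LAMA2. Among endothelial cells, 4 of the 9 genes with at least 10 CPM on average were at least 2-fold higher in the graft, against 13.6% of all 8774 genes at that level. Another 1 of the 9, LAMA2, was at least 2-fold lower, against 11.3% of all genes. Among smooth muscle cells, 2 of 10 were higher, against 11.2% of 9175 genes, and 1 was lower, against 14.2%. Scaling by trimmed means (TMM) moved all smooth muscle log2 ratios by 0.23 and gave 15.9% of all genes higher and 10.0% lower. The median log2 ratio of the 9 endothelial genes was 0.28, beside 0.04 over all genes, and that of the 10 smooth muscle genes was 0.53, beside -0.09 over all genes.

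**Figure D1:**
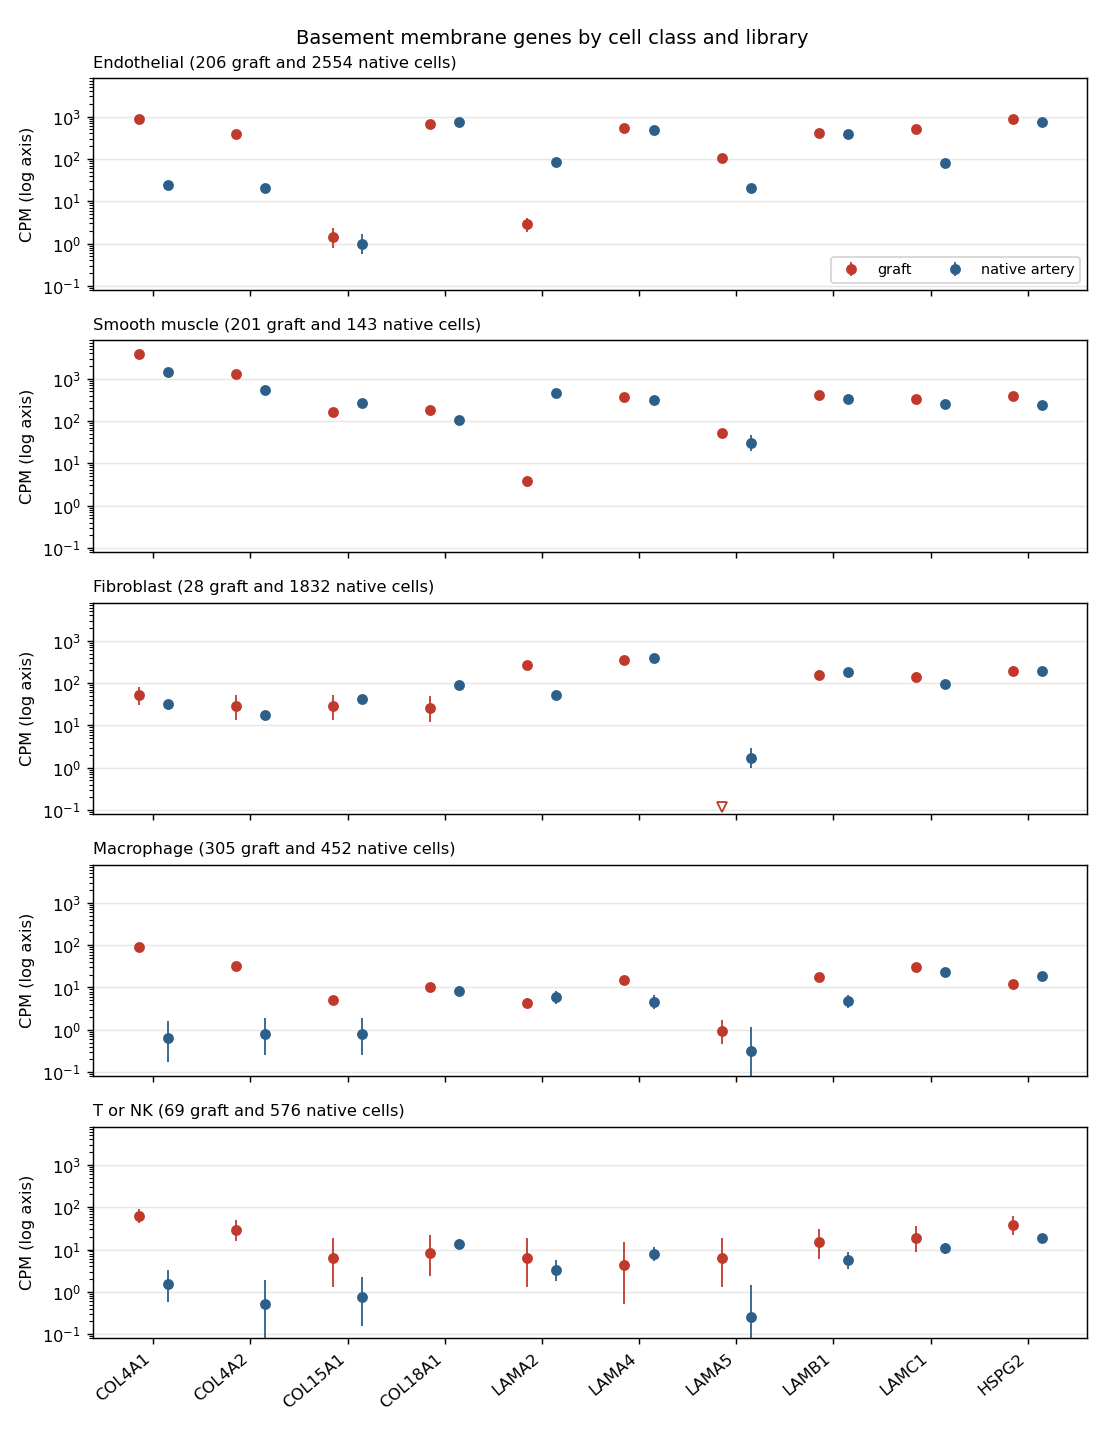
CPM of the 10 genes on a log axis by cell class, graft in red left of native artery in blue, with 95% exact Poisson intervals of counting error; the open triangle marks 0 UMIs. In endothelial cells COL4A1 lies at 893 CPM in the graft and at 24.7 CPM in the native artery, and in smooth muscle cells LAMA2 lies at 3.77 CPM in the graft and at 450.1 CPM in the native artery.

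**Figure D2:**
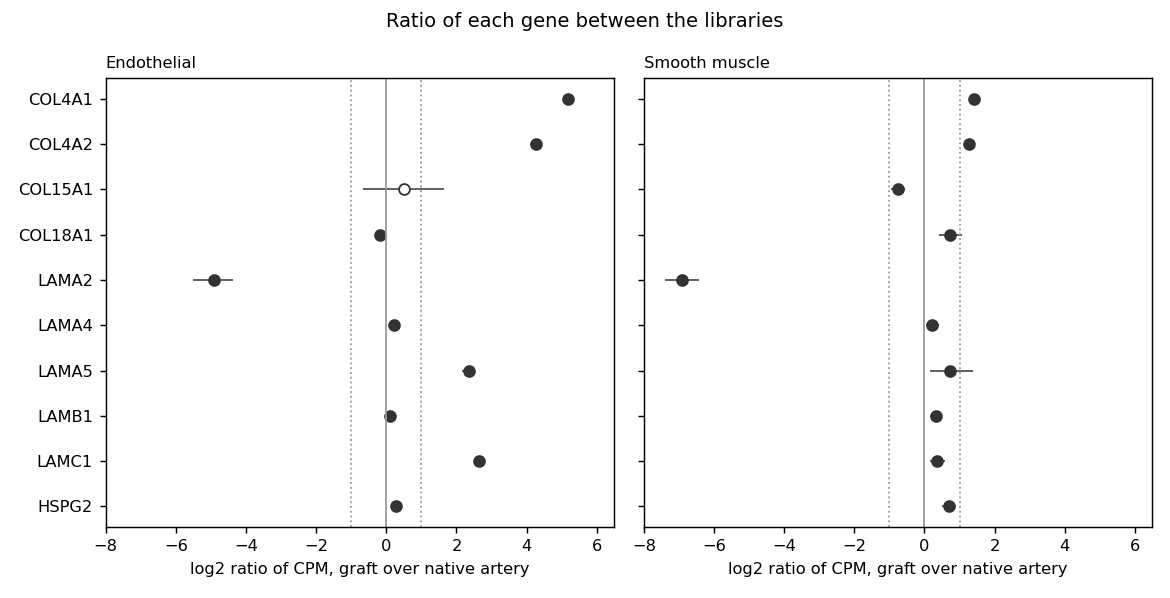
log2 ratio of CPM, graft over native artery, of each gene in endothelial (left) and smooth muscle cells (right), with 95% exact intervals of counting error; dotted lines mark 2-fold, and the open point is a gene under 10 CPM on average. COL4A1 stands at 5.18 and LAMA2 at -4.90 in endothelial cells, and LAMA2 at -6.90 in smooth muscle cells.

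COL4A1 and COL4A2 encode the chains of the collagen IV trimer found in most basement membranes, and lie next to each other in the RefSeq annotation of the sheep assembly ARS-UI_Ramb_v3.0. COL4A1 was at 893 CPM (875 to 912) in graft endothelial cells, against 24.7 CPM (22.2 to 27.3) in native endothelial cells, a ratio of 36.2 (32.6 to 40.3). COL4A2 was at 399 CPM (386 to 411) in graft endothelial cells, against 20.6 CPM (18.3 to 23.0) in native endothelial cells, a ratio of 19.4 (17.2 to 21.8). Both chains were thus higher in graft endothelium, COL4A1 by more. For each COL4A2 UMI, graft endothelial cells gave 2.24 (2.16 to 2.33) COL4A1 UMIs and native ones 1.20 (1.03 to 1.40), and these intervals do not overlap.

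In smooth muscle, COL4A1 was at 3843 CPM (3806 to 3879.9) in graft cells, against 1453 CPM (1371 to 1539) in native cells, a ratio of 2.64. COL4A2 was at 1307 CPM (1285 to 1328) in graft cells, against 539 CPM (489.9 to 593) in native cells, a ratio of 2.42. The chains kept close proportions here, with 2.94 COL4A1 UMIs per COL4A2 UMI in graft cells and 2.69 (2.41 to 3.01) in native cells. Smooth muscle cells held 80.1% of all COL4A1 UMIs of the graft library and 61.6% of those of the native library.

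Collagen IV transcript was counted in graft cells of every class, those of blood origin included. T and NK cells, which are not known for making basement membrane, had 61.6 CPM (41.3 to 88.5) of COL4A1 in the graft and 1.54 CPM (0.566 to 3.36) in the native artery. Macrophages had 91.8 CPM (86.4 to 97.5) in the graft and 0.637 CPM (0.174 to 1.63) in the native artery. The intervals of these graft classes overlap, and graft fibroblasts, at 51.3 CPM (30.4 to 81.1), overlap the T and NK cells too. Graft endothelial cells lay well above all of them. Graft macrophages gave 2.81 COL4A1 UMIs per COL4A2 UMI, close to the 2.79 (2.74 to 2.83) of the whole graft library. Summed levels of 14 smooth muscle markers were also higher in the graft, at 106 CPM in graft and 17.4 CPM in native macrophages, and at 189 CPM in graft and 34.4 CPM in native T and NK cells. Among the markers, LDB3 was at 0 in graft macrophages, and DES, MYOCD, LDB3 and CASQ2 in native ones. In graft and in native T and NK cells alike, MYOCD, LDB3 and CASQ2 were at 0. Their part in the collagen IV levels was not tested. Of 5 genes that reached 10 CPM on average in macrophages, 3 (COL4A1, COL4A2 and LAMB1) were at least 2-fold higher in the graft, against 9.41% of all genes, and 0 lower, against 5.08%. The macrophages of the libraries lay mostly in different clusters. In the graft 268 of them were in cluster 5, which held 2 native cells, and in the native artery 397 were in cluster 6, which held 36 graft cells. Within cluster 6, COL4A1 was at 29.4 CPM in graft cells (18 UMIs) and 0.500 CPM in native cells (3 UMIs), while LAMB1 had 0 graft and 29 native UMIs. The LAMB1 difference was thus not seen within cluster 6, and its log2 ratio in macrophages was -0.31 with classes from own markers. Of 6 in T and NK cells, 4 (COL4A1, COL4A2, LAMB1 and HSPG2) were higher, against 5.56%, and 0 lower, against 4.67%. These calls rest on few UMIs, with 7 graft UMIs of LAMB1, 18 graft UMIs of HSPG2 and 2 native UMIs of COL4A2. The log2 ratio of HSPG2 was 1.05, and 0.97 with TMM scaling, under 2-fold.

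Depth was then set equal by drawing 1000 UMIs from each cell, which left out cells with fewer. In endothelium 6 graft and 194 native cells were left out, and in smooth muscle 0 graft and 34 native cells. Of fibroblasts, 1 graft and 808 native cells were left out, and of T and NK cells 1 graft and 6 native cells. Of macrophages, 0 graft and 29 native cells were left out. A COL4A1 transcript was found in 36% (29.4 to 43.1) of graft endothelial cells, against 52 of 2360 native ones. In smooth muscle it was found in 83.1% (77.2 to 88.0) of graft cells and 45.0% (35.4 to 54.8) of native cells. As a background, T and NK cells gave 10.3% (4.24 to 20.1) in the graft and 0.351% (0.0425 to 1.26) in the native artery, at medians of 6352 and 6109.5 UMIs before drawing. The graft endothelial and smooth muscle shares lay above this background. Both collagen IV chains were seen in the same drawn cell in 14.5% of graft endothelial cells and in 0 of 2360 native ones. Without drawing, both chains were seen in 77.2% of graft and 2.08% of native endothelial cells. Also without drawing, at medians of 33613.5 and 4633 UMIs, COL4A1 was found in 88.8% of graft and 10.8% of native endothelial cells, and in 31.9% of graft and 1.04% of native T and NK cells. For smooth muscle cells, at medians of 34653 and 2754 UMIs, the undrawn shares were 98.5% in the graft and 48.3% in the native artery.

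**Figure D3:**
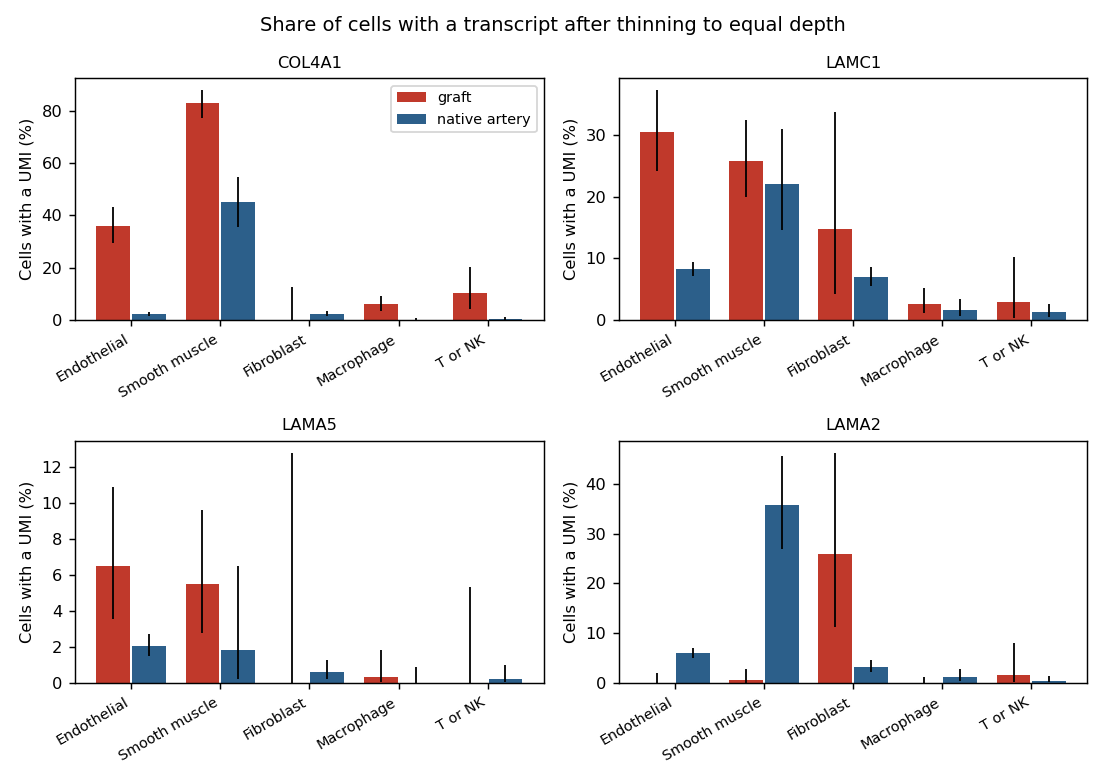
Share of cells (percent) with at least 1 UMI of COL4A1, LAMC1, LAMA5 and LAMA2 after drawing 1000 UMIs from each cell, by class, graft left of native artery, with 95% Clopper-Pearson intervals. COL4A1 is found in 83.1% of graft and 45.0% of native smooth muscle cells, and LAMA2 in 0.498% of graft and 35.8% of native ones.

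COL18A1 encodes collagen XVIII, the source of the fragment endostatin, and COL15A1 encodes the related collagen XV, which lies where the basement membrane meets the surrounding matrix. COL18A1 was at 671 CPM (655 to 687) in graft endothelial cells, against 763 CPM (749 to 777) in native endothelial cells, a difference within 2-fold. COL15A1 was close to absent from endothelium, with 14 UMIs in graft and 15 in native endothelial cells. In smooth muscle, COL15A1 was at 162 CPM (154 to 169) in graft cells, against 273 CPM (238 to 311) in native cells, while COL18A1 was at 179 CPM (171 to 187) in graft cells, against 108 CPM (86.4 to 133) in native cells. Each difference was within 2-fold. Within smooth muscle cluster 1, of 197 graft and 12 native cells, the ratio was 0.93 (0.553 to 1.70) for COL15A1 and 1.31 (0.729 to 2.62) for COL18A1, and both intervals include equal levels. When each cell was classed by its own markers, the log2 ratio was 0.16 for COL15A1 and -1.05 for COL18A1, so that the direction of both changed with how cells were classed. COL15A1 made up 47.4% (45.8 to 49.0) of the UMIs of the pair in graft smooth muscle cells and 71.7% (66.3 to 76.6) in native ones.

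LAMA2 encodes the alpha chain of merosin, the muscle laminin that binds dystroglycan. Smooth muscle cells held 41 LAMA2 UMIs in 201 graft cells, or 3.77 CPM (2.71 to 5.12), and 363 UMIs in 143 native cells, or 450.1 CPM (405 to 499). The graft level lay within the interval of graft T and NK cells, 6.37 CPM (1.31 to 18.6). With 1000 UMIs drawn per cell, 0.498% (0.0126 to 2.74) of graft and 35.8% (26.8 to 45.5) of native smooth muscle cells had a LAMA2 transcript, beside 1.47% of graft and 0.351% of native T and NK cells. Without drawing, the smooth muscle shares were 7.46% in the graft and 44.1% in the native artery.

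The smooth muscle cells of the libraries lay mostly in different clusters. Cluster 1 held 197 graft and 12 native cells, and cluster 20 held 4 graft and 131 native cells. All 363 native LAMA2 UMIs came from cluster 20, where the level was 500.1 CPM. The 4 graft cells of cluster 20 had 0 LAMA2 UMIs of 50613, which allows up to 59.3 CPM at 3 counts. The 12 native cells of cluster 1 had 0, which allows up to 37.2 CPM at 3 counts, beside 3.79 CPM in the graft cells there, so a LAMA2 difference was not measurable within cluster 1. Collagen IV was less far apart within cluster 1, with COL4A1 at 3843 CPM in graft cells and 2306 CPM in native cells, a ratio of 1.67 (1.44 to 1.94). The ratio of COL4A2 there was 1.95, so that neither chain reached 2-fold. LAMB1, LAMC1 and HSPG2 did. LAMB1 was at 415 CPM in graft and 198 CPM in native cells of cluster 1, LAMC1 at 327 CPM in graft and 149 CPM in native cells, and HSPG2 had a ratio of 3.16 (1.72 to 6.60). The native values rest on 16, 12 and 10 UMIs.

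Markers of other cells also differed between the smooth muscle cells. The 12 macrophage markers summed to 1458 CPM in graft cells, with none at 0, and to 172 CPM in native cells, with MRC1, MARCO, MSR1 and SPI1 at 0. The 7 mast cell markers summed to 46.7 CPM in graft cells, with MS4A2 at 0, and to 691 CPM in native cells, with none at 0. The fibroblast and pericyte lists were close between the libraries. The 11 fibroblast markers summed to 2880 CPM in graft cells, with none at 0, and to 2937 CPM in native cells, with DPEP1 at 0. The 6 pericyte markers summed to 710 CPM in graft cells, with none at 0, and to 739 CPM in native cells, with NDUFA4L2 at 0. The 14 smooth muscle markers themselves summed to 10498 CPM in graft cells, with none at 0, and to 8096 CPM in native cells, with CASQ2 at 0. Without the cells in which markers of another class reached 25% of the smooth muscle markers, 82 graft and 40 native cells remained, and in them the log2 ratio was -7.35 for LAMA2 and 1.37 for COL4A1.

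**Figure D4:**
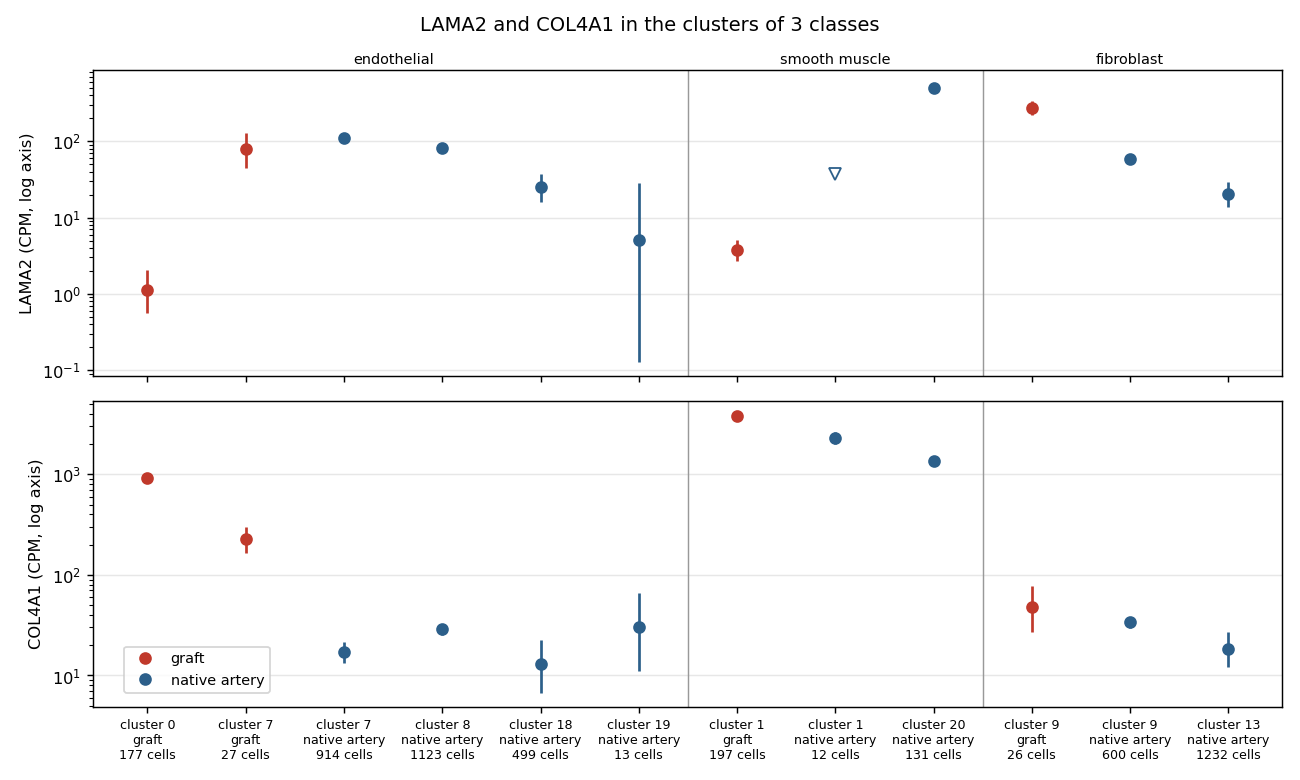
LAMA2 and COL4A1 in CPM on log axes for endothelial, smooth muscle and fibroblast clusters with at least 10 cells of a library, graft in red and native artery in blue, with 95% exact Poisson intervals of counting error; the open triangle marks 0 UMIs, drawn at a floor of 3 counts. LAMA2 is at 500.1 CPM in native smooth muscle cells of cluster 20, and at 78.3 CPM in graft endothelial cells of cluster 7 beside 1.14 CPM in those of cluster 0.

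In endothelium, LAMA2 was at 2.83 CPM (1.88 to 4.10) in graft cells, against 84.9 CPM (80.3 to 89.7) in native cells, 29.9-fold lower in the graft (20.6 to 45.2). The endothelial cells of the libraries also lay mostly in different clusters. Cluster 0, with 177 graft and 5 native cells, had 1.14 CPM in its graft cells. Cluster 7, with 27 graft and 914 native cells, had 78.3 CPM in graft cells (16 UMIs) and 109 CPM in native cells, a ratio of 0.72 (0.408 to 1.18). Within cluster 7 the LAMA2 interval thus included equal levels and did not reach the 29.9-fold difference of all endothelial cells. COL4A1 was still higher in the graft cells of cluster 7, by a ratio of 13.1 (8.81 to 19.2), and COL4A2 by 5.94 (3.41 to 9.91). COL18A1 and LAMA4 were lower in the graft cells of that cluster, at ratios of 0.467 (0.35 to 0.61) and 0.473 (0.364 to 0.603).

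In fibroblasts LAMA2 was higher in the graft, though the difference between cell classes was not tested. It was at 262 CPM (211 to 322) in the 28 graft fibroblasts (92 UMIs), against 51.3 CPM (46.6 to 56.3) in the native ones (442 UMIs). Within cluster 9, which held 26 graft and 600 native cells, the ratio was 4.68 (3.69 to 5.89). Drawing 1000 UMIs per cell kept 27 graft fibroblasts and the 1024 deeper native ones, leaving out 808 native cells. Of those kept, 25.9% (11.1 to 46.3) of graft and 3.22% (2.23 to 4.50) of native fibroblasts had a LAMA2 transcript. Without drawing, at medians of 11737 and 1152.5 UMIs, the shares were 75% and 11.2%. Fibroblasts held 41.3% of all LAMA2 UMIs of the graft library and 19.7% of those of the native library. LAMB1 and HSPG2 were close between the libraries, LAMB1 at 159.7 CPM in graft fibroblasts, against 180.4 CPM in native fibroblasts, and HSPG2 at 197 CPM in graft fibroblasts, against 198 CPM in native fibroblasts. Native endothelial cells held 56.6% of the native LAMA2 UMIs. The other native fibroblasts formed cluster 13, which had 2 graft cells. Its native cells were shallow, at a median of 827.5 UMIs, beside 11074 UMIs in native cells of cluster 9. They had 429 CPM of COL18A1, against 19.7 CPM in native cells of cluster 9, and 409 CPM of HSPG2, against 155 CPM. The whole native library had 402 CPM of COL18A1 and 405 CPM of HSPG2, close to the levels in these shallow cells. Within cluster 9 the ratio of HSPG2, graft over native, was 1.22 (0.936 to 1.58).

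LAMA4 and LAMA5 encode the alpha chains of endothelial laminins. LAMA4 was close between libraries, at 551 CPM (536 to 566) in graft endothelial cells, against 475 CPM (464 to 486) in native endothelial cells, and at 368 CPM (356 to 379) in graft smooth muscle cells, against 317 CPM (279.7 to 359) in native smooth muscle cells. LAMA5 was at 104 CPM (97.8 to 111) in graft endothelial cells, against 20.4 CPM (18.2 to 22.9) in native endothelial cells, a ratio of 5.09 (4.48 to 5.80). Within cluster 7 the ratio of LAMA5 was 0.737 (0.087 to 2.79), from 2 graft and 54 native UMIs. This wide interval includes equal levels and lies below the interval of all endothelial cells. In smooth muscle, LAMA5 was at 51.8 CPM (47.6 to 56.2) in graft cells, against 31.0 CPM in native cells, where only 25 UMIs were counted. Graft fibroblasts had 0 LAMA5 UMIs and native ones 15.

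Shares of the alpha chains are taken over the UMIs of LAMA2, LAMA4 and LAMA5 together and compared between libraries only, since the chains may be counted with unequal efficiency. In smooth muscle, LAMA2 made up 0.891% (0.64 to 1.21) in graft cells and 56.4% (52.4 to 60.2) in native cells, a difference of -55.5 percentage points. LAMA4 made up 86.9% in graft and 39.8% in native smooth muscle cells. The 12 native cells of cluster 1 had 0 LAMA2 UMIs of 30. In endothelium, LAMA5 made up 15.8% (14.9 to 16.7) in graft cells and 3.52% (3.15 to 3.93) in native cells, and LAMA2 0.431% (0.286 to 0.622) in graft cells and 14.6% (13.9 to 15.4) in native cells. Within cluster 7 LAMA2 took 16 of 84 UMIs in graft cells, an interval of 11.3% to 29.1%, and 13.5% (12.3 to 14.7) in native cells, and these intervals overlap. Over LAMA4 and LAMA5 alone, LAMA4 took 84.1% (83.2 to 85.0) in graft and 95.9% (95.4 to 96.3) in native endothelial cells, a difference of -11.8 points. In fibroblasts, LAMA2 made up 42.4% (35.7 to 49.3) in graft cells and 11.5% in native cells.

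**Figure D5:**
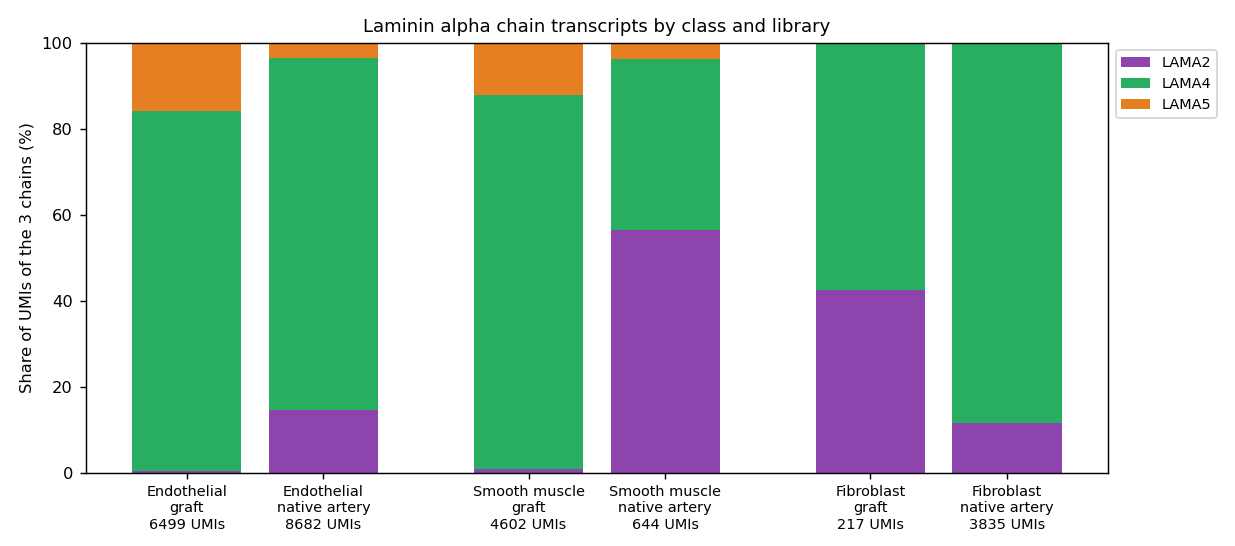
Share of the UMIs of LAMA2, LAMA4 and LAMA5 (percent, stacked bars) in endothelial, smooth muscle and fibroblast cells, graft left of native artery in each pair. LAMA2 takes 0.891% in graft and 56.4% in native smooth muscle cells, but 42.4% in graft and 11.5% in native fibroblasts.

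LAMB1 and LAMC1 encode the beta and gamma chains shared by most vascular laminins. LAMB1 was at 407 CPM in graft endothelial cells, against 382 CPM in native endothelial cells, a ratio of 1.07. LAMC1 was at 517 CPM (503 to 532) in graft endothelial cells, against 82.4 CPM (77.9 to 87.2) in native endothelial cells, a ratio of 6.27 (5.89 to 6.68). The beta chain was thus close between libraries and the gamma chain was not. Within cluster 7 the ratio of LAMC1 was 1.75 (1.26 to 2.37), under 2-fold. With 1000 UMIs drawn per cell, LAMC1 was found in 30.5% (24.2 to 37.4) of graft and 8.22% (7.14 to 9.40) of native endothelial cells, beside 2.94% of graft and 1.23% of native T and NK cells. Without drawing, the endothelial shares were 84.0% in the graft and 30.2% in the native artery.

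In smooth muscle both genes were within 2-fold, LAMB1 at a ratio of 1.25 (1.11 to 1.42) and LAMC1 at 1.29. Their alternatives differed more. LAMB2, a beta chain of arterial smooth muscle, was at 66.3 CPM in graft cells, against 249 CPM in native cells, 3.76-fold lower in the graft (3.20 to 4.40). LAMB1 took 86.2% (85.3 to 87.2) of the UMIs of LAMB1 and LAMB2 in graft smooth muscle cells and 57.1% (52.5 to 61.7) in native ones. In endothelial cells its share was 85.9% in the graft and 89.5% in the native artery. LAMC1 took 93.8% (93.0 to 94.6) of the gamma chain UMIs in graft smooth muscle cells and 78.8% (73.3 to 83.6) in native ones. The gamma chain gene LAMC3 was at 18.9 CPM in graft smooth muscle cells, against 67.0 CPM in native smooth muscle cells.

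HSPG2 encodes perlecan, the large heparan sulfate proteoglycan of the basement membrane. It was at 899 CPM (880.2 to 918) in graft endothelial cells, against 742 CPM (728 to 755) in native endothelial cells, and at 391 CPM (379 to 403) in graft smooth muscle cells, against 242 CPM (209 to 278) in native smooth muscle cells. Both differences were under 2-fold. Unnamed native cells, at a median of 852.5 UMIs, had 562 CPM of HSPG2 and 683 CPM of COL18A1, and held 19.7% of the HSPG2 UMIs of the native library. Unnamed graft cells had 68.6 CPM of HSPG2 and 45.8 CPM of COL18A1.

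Genes that fold, modify and cross-link collagen and laminin were then counted in both classes. Of 21 tested in endothelial cells, 11 were at least 2-fold higher in the graft and 0 lower, beside 13.6% higher and 11.3% lower over all genes, with a median log2 ratio of 1.16. LOXL2, a cross-linking enzyme of collagen IV, was at 223 CPM in graft endothelial cells, against 24.3 CPM in native endothelial cells, a ratio of 9.18 (8.21 to 10.3). PXDN encodes peroxidasin, which makes the sulfilimine bonds of collagen IV, and had a ratio of 9.01. P3H4, PLOD3 and FKBP10, which act on collagen chains in the endoplasmic reticulum, had ratios of 6.33, 5.88 and 4.22. The collagen chaperone gene SERPINH1 had a ratio of 3.27 and TXNDC5 one of 2.45, while P4HA1 (1.19) and PPIB (1.62) lay within 2-fold. In smooth muscle cells 9 of 22 were higher and 0 lower, beside 11.2% higher and 14.2% lower over all genes, with a median of 0.88. The ratio was 6.85 (5.19 to 9.24) for LOXL2, 5.44 (4.26 to 7.06) for the prolyl hydroxylase subunit gene P4HA2, 4.05 for KDELR3 and 2.88 for SERPINH1, while P4HA1 (1.79) and PPIB (1.89) lay within 2-fold.

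Other basement membrane genes were counted in the same way. In endothelial cells 4 of 10 tested were higher in the graft and 2 lower, beside 13.6% higher and 11.3% lower over all genes, with a median log2 ratio of 0.62. COL8A1, a short-chain collagen of vessels, was at 2472 CPM in graft endothelial cells, against 374 CPM in native endothelial cells, a ratio of 6.62 (6.43 to 6.81). SPARC, a collagen-binding protein, had a ratio of 2.63 and HMCN1 one of 1.59, and FBLN1 was 2.28-fold lower. In smooth muscle cells 4 of 19 were higher and 8 lower, beside 11.2% higher and 14.2% lower over all genes, with a median of -0.43. COL4A5 and COL4A6 encode the chains of a second collagen IV of smooth muscle. COL4A6 had 9 UMIs in graft and 33 in native cells and was 49.4-fold lower in the graft (23.1 to 117). COL4A5 had 36 UMIs in each library and was 13.5-fold lower in the graft (8.25 to 22.0). These chains thus differed in the direction opposite to COL4A1 and COL4A2 in the smooth muscle class. Its graft and native cells lay mostly in different clusters, and only the 10 genes described here were compared within clusters. NPNT, an integrin ligand, was 15.6-fold lower in the graft (10.3 to 23.8). COL8A2 (6.68; 3 native UMIs), COL6A3 (5.97), COL8A1 (4.16) and SPARC (2.03) had ratios above 2, and HMCN1 was 1.78-fold lower, within 2-fold.

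Receptors of laminin and collagen IV were counted last. In endothelial cells 3 of 17 were at least 2-fold higher in the graft and 4 lower, beside 13.6% higher and 11.3% lower over all genes, with a median log2 ratio of -0.35. ITGA1, the alpha subunit of a collagen IV and laminin receptor, was at 61.4 CPM in graft endothelial cells, against 651 CPM in native endothelial cells, 10.6-fold lower in the graft (9.75 to 11.5). ITGA2, the alpha subunit of a related collagen receptor, was at 40.0 CPM in graft endothelial cells, against 7.42 CPM in native endothelial cells, a ratio of 5.39 (4.36 to 6.72). Their common beta subunit gene ITGB1 (1.42) and ITGB4 (1.72) lay within 2-fold, as did the laminin receptor gene BCAM, 1.53-fold lower. In smooth muscle cells 1 of 16 was higher and 3 were lower, beside 11.2% higher and 14.2% lower over all genes, with a median of -0.35. DMD encodes dystrophin, which links dystroglycan to the cytoskeleton, and was at 262 CPM in graft smooth muscle cells, against 1585 CPM in native smooth muscle cells, 6.05-fold lower in the graft (5.66 to 6.46). ITGA6, the alpha subunit of a laminin receptor, had a ratio of 5.92 (2.29 to 21.8) with 4 native UMIs. ITGA1, ITGB1 and SGCD lay within 2-fold in smooth muscle.

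Over 8 profiles, the endothelial, smooth muscle, macrophage and T or NK cells of each library, the genes most like a member were ranked by Pearson's r of log2(CPM + 5) among 8477 genes. COL4A1 was most like COL4A2 (0.996), then DSEL, WFDC1, PRSS23 and COL1A2. LAMA2 was most like OMD (0.991), then STK32B, DBP, KIAA1328 and CLCC1. LAMA4 was most like HHAT (0.999), then PEAR1, ATP9A, ARHGEF10 and AMOTL2, and HSPG2 most like LGR4 (0.991), then NID2, ADAMTS1, THBS3 and TCEA2. Among the 10 genes, r was 0.986 between LAMA4 and LAMB1 and 0.973 between HSPG2 and COL18A1, and 0.228 between LAMA2 and COL4A1. The profiles share libraries and depth, and these values are a description.

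Markers of other cells differed between the endothelial cells too. The 14 endothelial markers summed to 5515 CPM in graft cells and 5118 CPM in native cells, with none at 0 in either. The smooth muscle markers summed to 693 CPM in graft cells, with LDB3 at 0, and to 318 CPM in native cells, with DES, LDB3 and CASQ2 at 0. The 11 fibroblast markers summed to 675 CPM in graft cells, with DPEP1 at 0, and to 129 CPM in native cells. The 5 cell cycle genes summed to 469 CPM in graft cells and 43.0 CPM in native cells. Without the cells in which markers of another class reached 25% of the endothelial markers, 156 graft and 2147 native cells remained. In them 4 of the genes were at least 2-fold higher in the graft and 1 lower, beside 13.03% higher and 10.72% lower over all genes. The log2 ratio of COL4A1 in these cells was 5.17.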

How the data were processed

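Both count matrices hold raw UMI counts per gene and cell barcode as deposited by the authors, made with Cell Ranger 7.2.0 per the file headers. Seurat 5.0.0, R 4.3.3 and bcl2fastq 2.20.0.422 are listed too, per the submitters' processing notes. The genome build, and whether intronic reads were counted, are not given in the sources used here. The matrices held 1229 graft and 11371 native barcodes. Barcodes with under 200 genes or over 20% mitochondrial counts were removed (143 graft and 266 native). The automatic threshold of Scrublet marked 3 graft and 0 native barcodes and was not used. Instead the highest scores were removed, at 0.8% per 1000 barcodes (12 graft and 1034 native). Cells of both libraries were clustered together with scanpy 1.11.5 (2000 variable genes, 30 components, 15 neighbours, Leiden resolution 1). Clusters were named from marker lists, and a cluster with fewer than 3 raised markers, with a rival list, or shallow with no marker among its leading 10 genes stayed unnamed. The limits of this naming were set after clusters had been seen. The 10 genes and all lists were chosen with earlier results of these data known.

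UMIs were summed per library and class, and intervals were computed with scipy 1.17.1. Genes with a mean of at least 10 CPM over both libraries were compared at 2-fold, in classes of at least 30 cells per library, and fewer than 3 UMIs were set to a floor of 3. Of the other lists, the text names the 4 genes of highest mean CPM in a class and those at least 4-fold apart with at least 30 UMIs in the higher library, and it adds LAMB2 and LAMC3, which were chosen after their values were seen, as were the beta and gamma chain shares. TMM factors came from edgeR 4.0.16. On simulated counts with 200 changed genes per class, 200 were recovered in endothelial cells, 200 in macrophages, 197 in smooth muscle and 195 in T or NK cells. Of unchanged genes, 3.24% were called in T or NK cells and 0.914% in smooth muscle cells. These counts held counting error only, and the changed genes lay well above 10 CPM and beyond 2-fold. The simulation thus does not cover lower genes, nor variation between cells or libraries. No test between groups was made, since each group is 1 library.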

Additional observations from a re-analysis of the deposited data

Results flagged for a closer look

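LAMA2 differed between the libraries in opposite directions by cell class. Its log2 ratio, graft over native artery, was -4.90 in endothelial cells and -6.90 in smooth muscle cells, and 2.23 in the fibroblasts of cluster 9. With 1 library per group, the difference between these classes was not tested. The endothelial and smooth muscle cells of the libraries lay mostly in different clusters, while the fibroblast value comes from 26 graft and 600 native cells of the same cluster. Within endothelial cluster 7 the log2 ratio of LAMA2 was -0.47, a ratio of 0.72 (0.408 to 1.18). Within smooth muscle cluster 1 a LAMA2 difference was not measurable. Opposite directions were thus seen between whole classes and not shown within clusters.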

How the results depend on the processing

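No paired analysis was possible because each group is 1 library. 12 alternatives were planned, and 3 were added after seeing the data: within clusters holding both libraries, without shared barcodes, and without cells carrying markers of another class. Over the planned ones the log2 ratio of LAMA2 ran from -7.53 to -5.97 in smooth muscle and from -5.77 to -2.39 in endothelium, and that of COL4A1 from 1.12 to 2.71 in smooth muscle and from 4.83 to 5.23 in endothelium. The LAMA2 share in smooth muscle, -55.5 points, was -28.6 with classes from each cell's own markers, -69.8 with equal weight per cell, -75.7 at 1000 UMIs per cell, -45.7 in cells of at least 5000 UMIs, -28.9 without cells carrying other markers, and 0.895 within cluster 1, where the native cells had 0 of 30. The LAMA4 share in endothelium, -11.8 points, was -10.5 with equal weight, -7.34 at 1000 UMIs and -1.03 within cluster 7, which rests on 2 graft LAMA5 UMIs. Within cluster 7, 2 genes were higher and 2 lower, against 4 and 1, beside 7.09% higher and 14.1% lower over all genes there. In smooth muscle 4 genes, against 2, were higher with own markers and at 1000 UMIs, beside 12.3% and 8.42% of all genes. Lower were 2, against 1, in these settings and with separate clustering or resolution 2. The shares of all genes lower were 10.5% with own markers, 16.3% at 1000 UMIs, 17.0% with separate clustering and 16.2% at resolution 2. Within cluster 1, 0 were lower, beside 36.4% of all genes. In macrophages 7 genes, against 3, were higher without doublet removal, 5 without the filter and 1 within cluster 6. The shares of all genes higher were 9.51%, 9.98% and 5.70% in that order. With own markers, separate clustering or equal weight 2, against 0, were lower, beside 5.90%, 5.80% and 4.27% of all genes. LAMB1 in macrophages turned to -0.31 with own markers and -0.32 with separate clustering. In T and NK cells LAMB1 turned to -0.42 and HSPG2 to -0.97 with the 10 genes allowed among variable genes, and to -0.91 and -1.29 without doublet removal. Why these values moved was not tested. Native depth limits low genes: native smooth muscle rests on 143 cells, and the graft fibroblasts on 28.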

Other observations

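Neutrophils had 125 CPM of COL4A1 in the graft, from 10 UMIs in 39 cells, against 1 UMI in 12 native cells.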
